A study of Homo sapiens with 8 samples.

Results

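The long non-coding RNA genes MALAT1, NEAT1, TUG1, OIP5-AS1 and NORAD were followed through 4 lists of KAS-seq peaks, 2 from untreated cells and 2 from cells exposed to vitamin C. KAS-seq marks DNA that is single-stranded in living cells: N3-kethoxal binds unpaired guanines, and sequencing of the captured fragments shows transcription bubbles as peaks. The genes were chosen by name, as 5 of the 59098 genes of a RefSeq table (assembly GRCh38.p14) on chromosomes 1 to 22 and X, and a peak counted for a gene where it overlapped the gene widened by 1 kb on each side. RefSeq types 4 of them as lncRNA and TUG1 as protein-coding.

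The cells were HEK293T, an established line derived from human embryonic kidney, and 2 groups were compared. Control cells received no vitamin C, and the treated cells spent 10 min in medium holding 0.5 mM of it; both then received 5 mM N3-kethoxal for 10 min. Each group had 2 labelled libraries, each with a peak list of its own, and the 4 input libraries of the series were not analysed here. The labels do not say whether replicates were separate cultures, so every p rests on the library-to-library spread alone, and this spread may be technical. Their cell line field carried differing numbers, while every title named HEK293T. Fewer cells with an opened site and less opened DNA per cell cannot be told apart in such bulk libraries.

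MALAT1 and NEAT1 are neighbouring genes whose RNAs stay in the nucleus. MALAT1 RNA collects in nuclear speckles, the stores of splicing factors, and its end is made by RNase P, which cuts off a tRNA-like small RNA named mascRNA. NEAT1 RNA is the scaffold of paraspeckles and is made in a short and a long form that share a start. NORAD is a mostly cytoplasmic RNA that sequesters RNA-binding proteins, OIP5-AS1 (also called cyrano) directs the decay of a microRNA, and TUG1 is a spliced RNA of nucleus and cytoplasm that was first described in the retina.

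The sequence around a start site shows where the opened DNA lay at a gene's beginning. RefSeq windows of GRCh38.p14, from 250 bases before to 50 bases after a start site, were matched for 4 of the 5 genes, with 2 windows for MALAT1. They are printed 5′ to 3′ in the direction of transcription, and capitals mark bases that lay inside peaks of both control libraries. The MALAT1 pair is shown because the upstream window held no peak base and the downstream one was wholly inside peaks, and the OIP5-AS1 and NORAD windows because control peaks ended within them.
MALAT1, the first start site, chr11:65497488-65497787, plus strand: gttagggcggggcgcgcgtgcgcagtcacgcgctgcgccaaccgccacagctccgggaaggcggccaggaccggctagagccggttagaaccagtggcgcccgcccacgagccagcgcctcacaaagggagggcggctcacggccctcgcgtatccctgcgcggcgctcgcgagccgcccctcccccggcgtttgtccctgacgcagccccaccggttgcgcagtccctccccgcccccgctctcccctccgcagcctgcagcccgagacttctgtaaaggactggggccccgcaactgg
MALAT1, the second start site, chr11:65498795-65499094, plus strand: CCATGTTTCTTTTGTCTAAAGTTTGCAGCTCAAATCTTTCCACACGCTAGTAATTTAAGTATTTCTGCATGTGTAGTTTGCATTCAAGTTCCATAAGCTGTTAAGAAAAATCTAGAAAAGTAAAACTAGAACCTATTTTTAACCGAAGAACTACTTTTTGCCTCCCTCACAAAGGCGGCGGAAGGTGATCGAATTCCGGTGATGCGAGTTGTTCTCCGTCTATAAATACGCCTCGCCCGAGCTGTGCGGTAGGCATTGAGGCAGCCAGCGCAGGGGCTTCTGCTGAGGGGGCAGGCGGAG
OIP5-AS1, chr15:41283740-41284039, plus strand: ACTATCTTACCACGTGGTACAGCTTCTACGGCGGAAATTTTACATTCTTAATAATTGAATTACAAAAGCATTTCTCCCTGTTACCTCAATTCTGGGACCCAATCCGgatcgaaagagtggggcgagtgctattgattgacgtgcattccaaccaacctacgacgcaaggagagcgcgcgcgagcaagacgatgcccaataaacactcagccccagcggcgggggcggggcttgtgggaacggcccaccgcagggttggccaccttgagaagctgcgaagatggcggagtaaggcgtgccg
NORAD, chr20:36050911-36051210, minus strand: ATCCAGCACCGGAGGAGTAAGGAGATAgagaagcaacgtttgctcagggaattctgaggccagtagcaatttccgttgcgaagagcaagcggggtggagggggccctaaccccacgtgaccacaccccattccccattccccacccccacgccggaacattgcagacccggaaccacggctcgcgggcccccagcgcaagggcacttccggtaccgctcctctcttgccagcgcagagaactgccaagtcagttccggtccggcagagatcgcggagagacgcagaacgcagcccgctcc

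All 300 bases of the downstream MALAT1 window lay inside peaks in each of the 4 libraries, and none of the upstream window did in any. In the OIP5-AS1 window 106 and 265 bases lay in peaks of control replicates 1 and 2, and 0 in each vitamin C library. In the NORAD window 27 and 57 bases did in the controls and 0 with vitamin C, all at the edge farthest from the start. The TUG1 window, chr22:30969015-30969314 on the plus strand, held no peak base in any library. GC content was 73.7% in the upstream MALAT1 window and 46.0% in the downstream one, against 67.7% for TUG1, 54.3% for OIP5-AS1, 63.0% for NORAD and a median of 58.7% over 35116 RefSeq promoter windows.

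Common promoter motifs differed between these windows. The TATA-box letters TATAAA, searched on both strands, occurred only in the downstream MALAT1 window, starting at base -30 of the start site, and in 11.5% of all promoter windows. The GC-box letters GGGCGG occurred 5 times in the upstream MALAT1 window, 4 times in TUG1 and 1 time in OIP5-AS1, against 45.0% of all windows with at least 1. The E-box letters CACGTG, which read alike on both strands, occurred in TUG1, OIP5-AS1 and NORAD, 3 of the 5 windows, and in 7.26% of all. CCAAT occurred 2 times each in TUG1 and OIP5-AS1 and in 34.6% of all windows. Each motif was counted on both strands, matches of different motifs can overlap, and a match describes letters and not a bound factor.

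The 4 lists differed in length, which bears on every value that follows. They held 24111 to 30351 peaks on these chromosomes in the controls and 9816 to 9896 with vitamin C, covering 12.9 to 15.6 Mb and 4.73 to 4.92 Mb. Fragment pileups at summits were solved from the authors' fold and p of each peak and divided by the library's genome-wide mean background; this quotient is called the summit pileup. The solution assumed a Poisson p and a fold with a pseudocount of 1, as MACS2 computes them by default, and the scaling of vitamin C replicate 1 was itself solved from the values and is stated in no label. The lowest summit pileup called over mean background was 7.06 and 7.35 times the mean in control libraries and 8.04 and 8.16 times in vitamin C libraries. The housekeeping genes ACTB, GAPDH and EEF1A1 held peaks in all 4 libraries, and the kidney development genes PAX2, LHX1, WT1 and SIX2 in none. Of 6 genes of other cell types (ALB, HBB, INS, CD3E, MYH6 and PTPRC), only ALB had a peak, in vitamin C replicate 1.

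All 5 genes had peaks in both controls. MALAT1, NEAT1 and NORAD also had peaks in both vitamin C libraries, TUG1 had 1 in vitamin C replicate 2 only, and OIP5-AS1 had none. A gene with peaks in all 4 libraries is called kept here, and one with peaks in both controls but no peak with vitamin C lost. Kept genes were 3 of 5, beside 50.8% of all 9601 genes with a peak in both controls and 45.4% of the 1404 lncRNA genes among them. Lost genes were 1 of 5, beside 26.8% of all genes and 31.9% of lncRNA genes. Both counts are near the shares over all genes. The map of peaks along the genes shows where each list placed them.

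**Figure D1:**
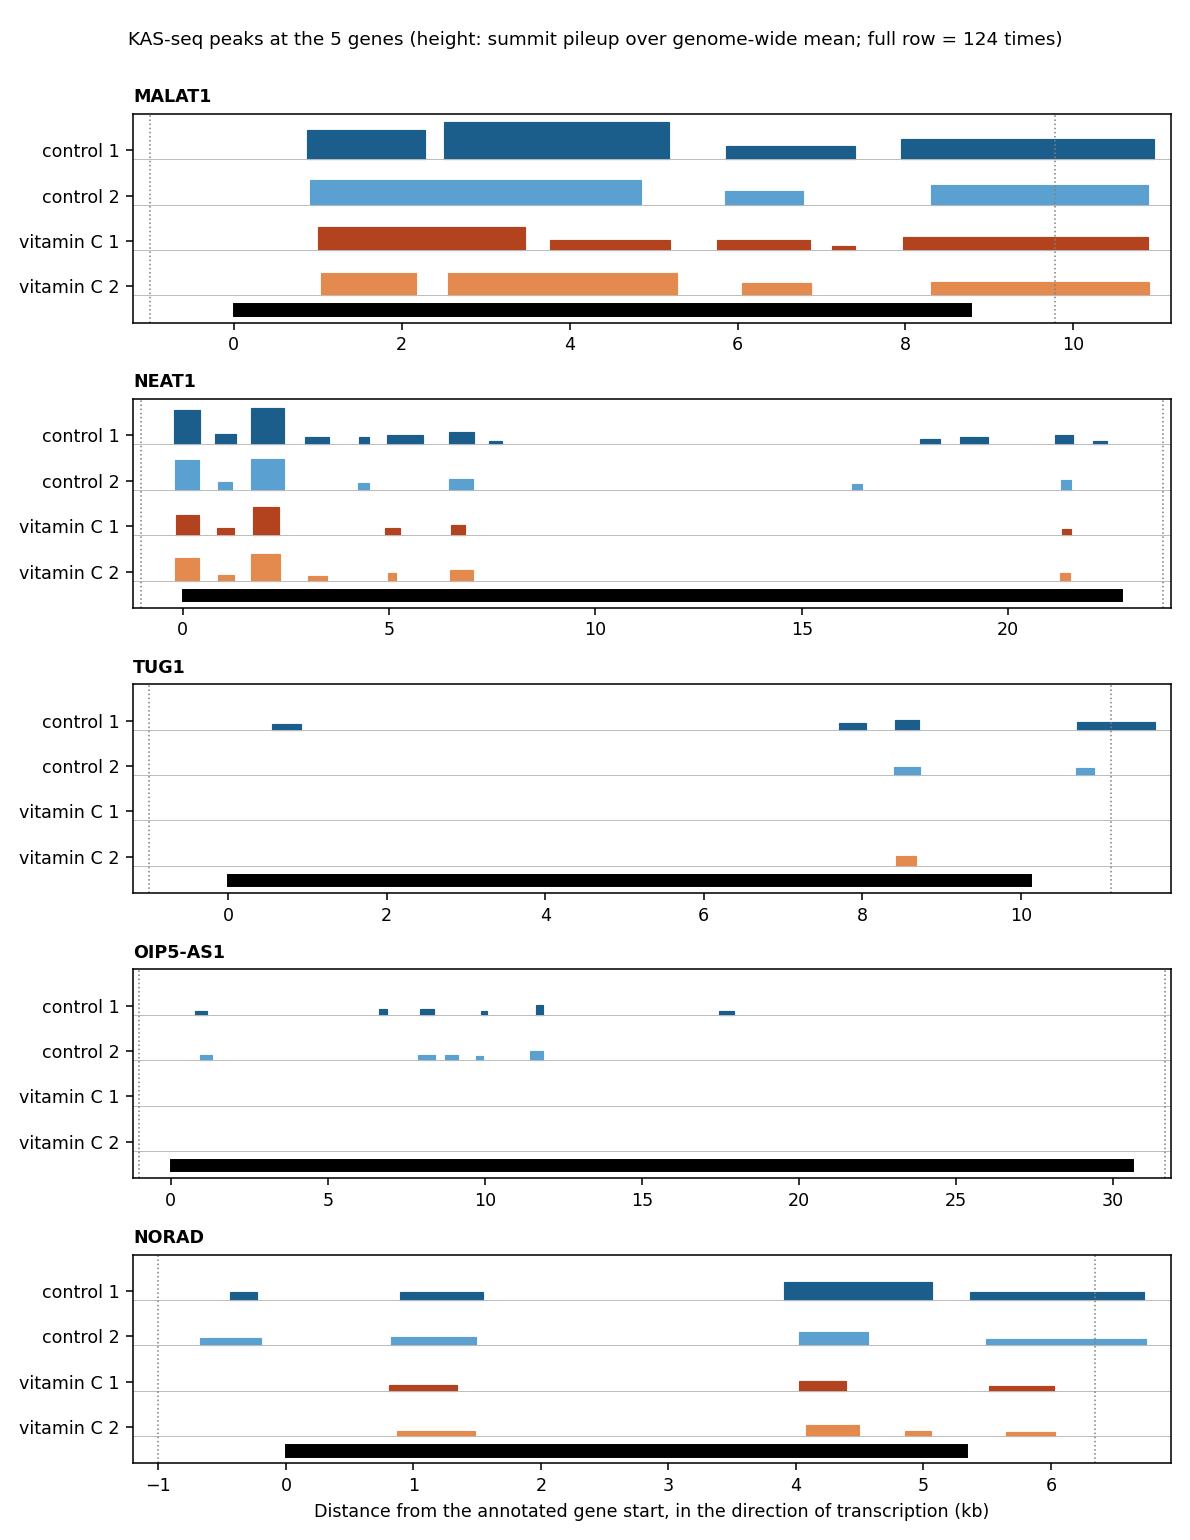
Each panel is 1 gene, drawn in the direction of transcription from its annotated start (x axis, kb; black bar, the gene; dotted lines, the gene widened by 1 kb), with 1 row per library and each peak as a block whose height is its summit pileup over the genome-wide mean. MALAT1, NEAT1 and NORAD carry peaks in all 4 rows, TUG1 in the controls and vitamin C replicate 2, and OIP5-AS1 in the controls only.

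MALAT1 (chromosome 11, 65497738 to 65506516, plus strand, 8779 bp) was the gene most covered by peaks, and its covered length overlapped between the groups. Peaks covered 7461 and 6337 bp of the widened gene in the controls against 7092 and 6185 bp with vitamin C. These are 69.2%, 58.8%, 65.8% and 57.4% of its 10779 bp. The groups overlapped, with both first replicates above both second ones. The means were 6899 ± 795 bp and 6638.5 ± 641 bp (SD, n = 2 each), or 96.2% of the control length, a difference of -260.5 bp with an exact two-sided permutation p of 0.667. Its direction turned when 1 library was left out, to 301.5 bp without control replicate 1 and 193.0 bp without vitamin C replicate 2. It also turned, to 653.5 bp, when the summit had to lie in the widened gene.

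Summit pileup at MALAT1 was lower in both vitamin C libraries while the covered lengths overlapped. Overlapping peaks of the 4 lists were merged into sites, of which MALAT1 had 3, each with peaks in all 4 libraries. Site 1 spans 878 to 5283 bp past the annotated start and covers the downstream start site printed above. Its summit pileup was 101.6 and 65.9 times the mean in the controls, and with vitamin C 63.7 and 62.0. Site 2, farther along the gene, gave 35.5 and 36.5, then 27.8 and 34.4. Site 3 runs from inside the gene across its end and gave 53.9 and 54.2, then 35.9 and 36.7. Both vitamin C values were below both controls at each site, and the controls of site 3 differed by less than the drop. The site 1 value of control replicate 2 came from a summit 1452 bp past the annotated start, the others from 2855 to 2859 bp. At site 3 the value of vitamin C replicate 1 came from a summit 8887 bp past it, the others from 10105 to 10152 bp. The values of these sites are thus not all from 1 position. The authors' fold over local background overlapped at site 1, with 15.7 and 19.4, then 15.4 and 17.2. At site 2 it was higher with vitamin C, 7.29 and 6.65, then 11.2 and 10.1. At site 3 it was 24.3 and 20.3, then 17.9 and 10.7. The log2 ratios of summit pileup were -0.41, -0.21 and -0.57. Each had an exact permutation p of 0.33, the smallest that 2 libraries against 2 can give. Over the 5010 sites of the genome with a peak in all 4 libraries the median log2 ratio was -0.48, with quartiles of -0.63 and -0.32, so sites 1 and 3 lay between these quartiles and site 2 above them.

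Within MALAT1 the opened DNA began before the downstream start site and ran past the gene's end. No peak touched the annotated start. Counted from the downstream start site, the first peak began at -429 and -394 bp in the controls and at -306 and -273 bp with vitamin C. The first peak had its summit 145 bp past the downstream start site in both controls and 121 bp past it in vitamin C replicate 2. In vitamin C replicate 1 the first peak was a single block of 2466 bp with its summit 1548 bp past that start site. Another summit at about that place stood in control replicate 1, 1549 bp past it, and in vitamin C replicate 2, 1552 bp past it. Peaks covered the whole 1 kb past the gene's end in all 4 libraries and reached at most 2185 bp past it. At this end lie the 58 bp of mascRNA, the small RNA released by RNase P, which were wholly inside peaks in all 4 libraries. The summit of the peak across the end stood 1327 bp, 1374 bp and 1374 bp past the end in the controls and vitamin C replicate 2, and 109 bp past it in vitamin C replicate 1. TALAM1, an antisense RNA of the same locus, spans most of this stretch, with 5561 to 6681 of its 8121 bp inside peaks. KAS-seq peaks carry no strand, so MALAT1 and TALAM1 cannot be told apart here.

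NEAT1 (chromosome 11, 65422798 to 65445540, 22743 bp) had, among the 5 genes, the peaks of highest rank in both control lists. Its best peak stood at percentile 99.5 of the fold in both control lists and at 92.0 and 98.9 in the vitamin C lists. These are ranks within lists of differing length, so they do not measure a change between the groups. NEAT1 is read here as transcribed toward higher coordinates, from general knowledge and not from the tables used. Peaks numbered 12 and 7 in the controls against 6 and 7 with vitamin C, and covered 6432, 3037, 2520 and 3174 bp. Control replicate 1 stood above the other 3 libraries, and control replicate 2 lay between the vitamin C values. The means were 4734.5 ± 2401 bp and 2847 ± 462 bp (SD, n = 2 each), or 60.1% of the control length, a difference of -1887.5 bp with an exact two-sided permutation p of 0.667. The size rested on control replicate 1: the difference was -190 bp without it and -3585 bp without control replicate 2, and it was -1097.5 bp in lists cut to 9816 peaks each.

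The plot of covered share by library shows the 5 genes side by side.

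**Figure D2:**
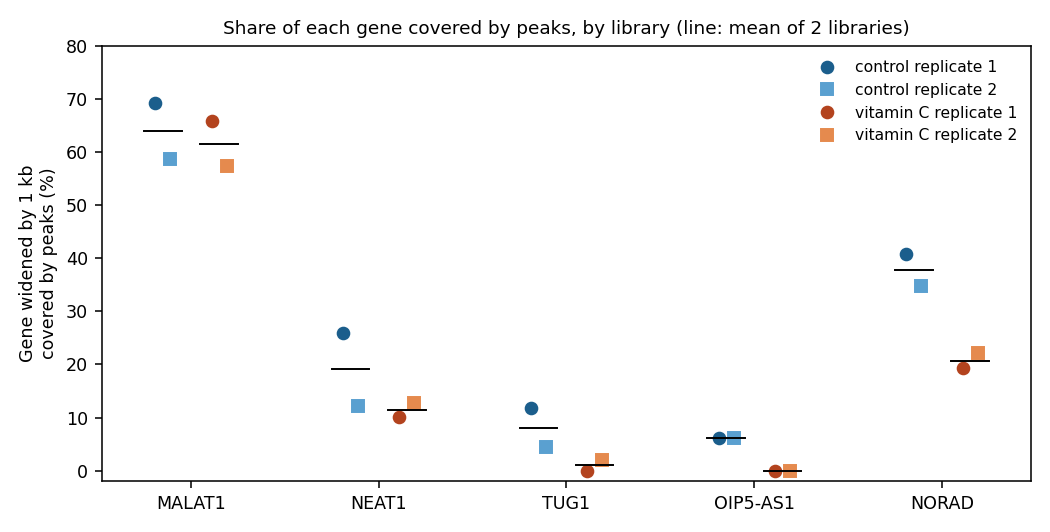
Share of the widened gene covered by peaks (y axis, percent of its length) for the 5 genes in each library, with a line at the mean of the 2 libraries of a group. MALAT1 and NEAT1 overlap between groups, and TUG1, OIP5-AS1 and NORAD are lower in both vitamin C libraries than in both controls.

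NEAT1 split into 13 sites, and the strong ones at its start were present in every library. Site 1 straddles the annotated start, from 207 bp before to 418 bp past it, and its summits stood 233 and 216 bp past the start in the controls, and with vitamin C 208 and 181 bp. Its summit pileup was 93.1 and 81.2 times the mean in the controls against 54.7 and 62.0 with vitamin C, a log2 ratio of -0.58. Site 3, about the same height, lies 1647 to 2452 bp past the start and gave 100.4 and 83.6, then 75.9 and 71.2, a log2 ratio of -0.32. Both are in the part of the gene that the short and long forms share. Their summits were placed within 52 bp and 40 bp of each other over the 4 libraries, and at each of the pair both vitamin C values lay below both controls. Both log2 ratios lay between the quartiles of the genome's sites with a peak in all 4 libraries, -0.63 and -0.32. Site 3 was close to the upper quartile.

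The weaker sites of NEAT1 were met less evenly. Of its 13 sites, 6 had peaks in both controls, 5 of these in both vitamin C libraries, and site 5 in neither. Site 5 had summit pileups of 19.6 and 17.7 in the controls. The lower kept sites were not far from it: site 2 gave 28.2 and 22.4, then 18.8 and 14.9, and site 12 gave 26.9 and 25.9, then 15.5 and 19.5. Site 7 was the only one of the 11 sites kept at the 5 genes whose summit pileups overlapped between groups. They were 34.3 and 29.4 in the controls, and with vitamin C 28.6 and 29.9. The other 7 NEAT1 sites had a peak in 1 control alone, 6 of them in control replicate 1, and 2 of the 7 (sites 4 and 6) also had a vitamin C peak.

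Along NEAT1 the peaks gathered in the first 2 quintiles, and in control replicate 1 also near the end. Each quintile is 20% of the gene's length. The first one was covered to 56.1% and 40.1% in the controls against to 32.0% and 43.7% with vitamin C. The middle quintile held no peak base in any library. In the last quintile, which belongs to the long form, coverage was 34.6%, 5.14%, 4.53% and 5.30%, so control replicate 1 stood above the other 3 libraries. Site 12, with summits 21308 to 21353 bp past the start, was the one site of that quintile found in all 4. The microRNA gene MIR612, inside the same quintile, had 0 of its 100 bp in peaks in any library.

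NORAD (chromosome 20, 36045618 to 36050960, minus strand, 5343 bp) kept most of its sites, with less covered length and lower summit pileups. Peaks covered 3002 and 2551 bp of the widened gene in the controls, and with vitamin C 1421 and 1625 bp. Both vitamin C libraries were below both controls, and the gap between groups was larger than either gap within a group. The means were 2776.5 ± 319 bp and 1523 ± 144 bp (SD, n = 2 each), 54.9% of the control length, a difference of -1253.5 bp with an exact two-sided permutation p of 0.33. It was -384 bp in lists of equal length and -439.5 bp over the gene without its flanks.

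NORAD had 4 sites, all present in both controls, and the one before its start was absent with vitamin C. Counted from the start, that site ended at -224 and -194 bp in control replicates 1 and 2, with summit pileups of 22.04 and 20.01. The capitals in its printed window mark the 27 bases in peaks of both controls, up to -224. Site 2, inside the gene, gave 22.04 and 22.4, then 14.7 and 12.6, a log2 ratio of -0.70, the lowest of the 11 kept sites. In the controls this site was about as high as the absent one. Site 3, the strongest, gave 48.99 and 36.5, then 26.9 and 31.0, a log2 ratio of -0.56. Site 4 starts just past the gene's end and gave 20.8 and 16.5, then 13.9 and 11.5, also -0.56. Over the genome's sites with a peak in all 4 libraries the quartiles were -0.63 and -0.32. Sites 3 and 4 lay between these quartiles and site 2 below them. Coverage of the 1 kb past the end was 97.6% and 85.1% in the controls against 51.2% and 38.7% with vitamin C, while the 1 kb before the start had 21.5% and 48.5%, then 0% in both.

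TUG1 (chromosome 22, 30969265 to 30979395, plus strand, 10131 bp) had few peaks, most of them toward or past its end. Peaks covered 1425 and 546 bp in the controls, and with vitamin C 0 and 245 bp. Both vitamin C values were below both controls, and the controls differed from each other by more than control replicate 2 did from vitamin C replicate 2. The means were 985.5 ± 622 bp and 122.5 ± 173 bp (SD, n = 2 each), 12.4% of the control length, a difference of -863 bp with an exact two-sided permutation p of 0.33. It was -423.5 bp without control replicate 1, -1302.5 bp without control replicate 2, -542.5 bp over the gene alone and -2218.5 bp with 5 kb flanks. Without vitamin C replicate 1 the gene counted as kept, and without vitamin C replicate 2 as lost.

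Of 4 TUG1 sites, 2 had peaks in both controls. Site 3, in the last quintile of the gene, had summit pileups of 26.9 and 21.2 in the controls and 25.3 in vitamin C replicate 2, between the control values, with no peak in vitamin C replicate 1. Site 4, past the gene's end with summits 693 and 688 bp beyond it, gave 20.8 and 17.7 and no vitamin C peak. Sites 1 and 2 were peaks of control replicate 1 alone, site 1 lying 555 to 917 bp past the start and site 2 7712 to 8042 bp past it. No peak touched the annotated TUG1 start. Upstream of it the neighbouring gene MORC2, a chromatin-silencing ATPase gene, was covered over 569 and 546 bp in the controls and 0 bp in both vitamin C libraries.

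OIP5-AS1 (chromosome 15, 41282697 to 41313338, plus strand, 30642 bp) was the one gene of the 5 without any peak after vitamin C. It had 6 and 5 peaks in the controls, covering 1995 and 1996 bp, and 0 bp in both vitamin C libraries. The difference was -1995.5 bp, with control and vitamin C means of 1995.5 ± 0.707 bp and 0 bp (SD, n = 2 each) and an exact two-sided permutation p of 0.33. The control lengths were nearly equal while the peaks were partly different: the controls shared 961 bp, a Jaccard index of 0.317. In lists of equal length the difference was -545.5 bp, with the gene still at 0 in both vitamin C lists.

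OIP5-AS1 had 7 sites, 4 of them in both controls, all in the first 2 quintiles of the gene and all absent with vitamin C. Site 1 lies at the start site of the printed window, with peaks from -513 to -145 bp of it in control replicate 1 and from -361 to 14 bp in control replicate 2. Its summit pileup was 9.80 and 14.1 times the mean. Site 3 gave 14.7 and 12.9, and site 5 gave 11.02 and 10.6. Site 6, the strongest, gave 26.9 and 23.5, which is above both controls of NORAD site 2, a site with peaks in all 4 libraries. The control values of the other 3 sites stood between 9.80 and 14.7, nearer to the lowest summit pileups called over mean background with vitamin C, 8.04 and 8.16. The part of list length and depth in the absence of these peaks was not tested. The last 2 quintiles held no peak in any library, and the overlapping gene OIP5, which encodes a centromere protein, had 383 bp covered in control replicate 1 and none elsewhere. CHP1, the gene before the start of OIP5-AS1, had no peak in any library.

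Across the 5 genes 31 sites were found, 19 of them with peaks in both controls, and the plot of summit pileup shows these 19. Both vitamin C libraries met 11 of them (57.9%), beside 33.1% of 15146 such sites in the genome, and neither met 7 (36.8%), beside 42.1%. Sites of 1 gene share its transcription and are not independent. At 10 of the 11 kept sites both vitamin C summit pileups were below both controls. This held at 76.9% of the 5010 sites of this kind in the genome. By the authors' fold over local background it held at MALAT1 site 3, NEAT1 sites 1, 2 and 12 and NORAD site 3. At MALAT1 site 2 that fold was higher in both vitamin C libraries. At MALAT1 site 1, NEAT1 sites 3 and 7 and NORAD sites 2 and 4 it overlapped between groups. No site had vitamin C peaks alone, and of 12 sites with a peak in 1 control, 2 had one with vitamin C. The shares of such sites over the genome were not computed, and the control lists hold more peaks, so these counts describe the lists only.

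**Figure D3:**
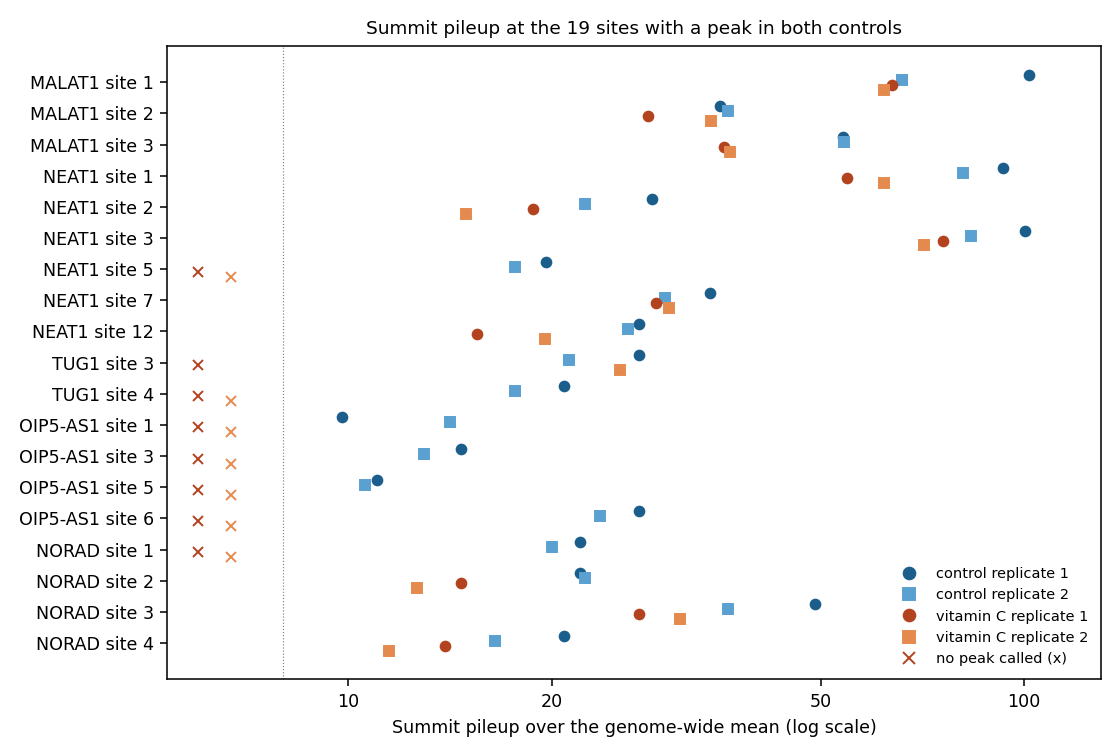
Summit pileup over the genome-wide mean (x axis, log scale) at the 19 sites with a peak in both controls (rows), 1 symbol per library; crosses left of the dotted line mark libraries with no peak and have no value. The 11 kept sites belong to MALAT1, NEAT1 and NORAD, and vitamin C symbols lie to the left of both controls at 10 of them.

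At MALAT1, NEAT1 and NORAD the bases in peaks of both vitamin C libraries lay mostly inside peaks of both controls. The same share over all genes was not computed, and the control lists cover more bases. Of bases in peaks of both vitamin C libraries, 92.4% at MALAT1, 89.0% at NEAT1 and 97.9% at NORAD were in peaks of both controls. In the other direction 87.6% of the bases in both controls were in both vitamin C libraries at MALAT1, 75.8% at NEAT1 and 51.7% at NORAD, and 0% at TUG1 and OIP5-AS1. The Jaccard index between the 2 controls was 0.794 at MALAT1, 0.412 at NEAT1 and 0.661 at NORAD. Between a control and a vitamin C library it was 0.796 to 0.866, 0.381 to 0.631 and 0.433 to 0.547. Over all 5 genes covered length summed to 20315 and 14467 bp in the controls against 11033 and 11229 bp with vitamin C, a difference of -6260 bp, or 64.0% of the control. With lists of equal length it was -2969 bp. Covered length was lower in both vitamin C libraries than in both controls at 3 of the 5 genes (TUG1, OIP5-AS1 and NORAD), beside 89.3% of all genes with a peak in both controls. The median gene had 26.5% of its control length left, and the median of the 5 genes was 54.9%.

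Control strength, the mean percentile of a gene's best peak in the 2 control lists, separates the 5 genes, as the plot of strength quintiles shows. NEAT1, MALAT1 and NORAD were in the strongest quintile of all genes and TUG1 and OIP5-AS1 in the middle one. In the strongest quintile 97.2% of genes were kept and 0.625% lost. In the middle quintile 44.7% were kept and 24.0% lost. The median gene of the strongest quintile had 57.2% of its control length left, near the 54.9% of NORAD and the 60.1% of NEAT1. MALAT1 stood above it: 3.12% of genes of that quintile had at least its 96.2%. In the middle quintile the median was 20.3%, against 12.4% for TUG1 and 0% for OIP5-AS1. These shares describe the same lists that give the strength, with no test.

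**Figure D4:**
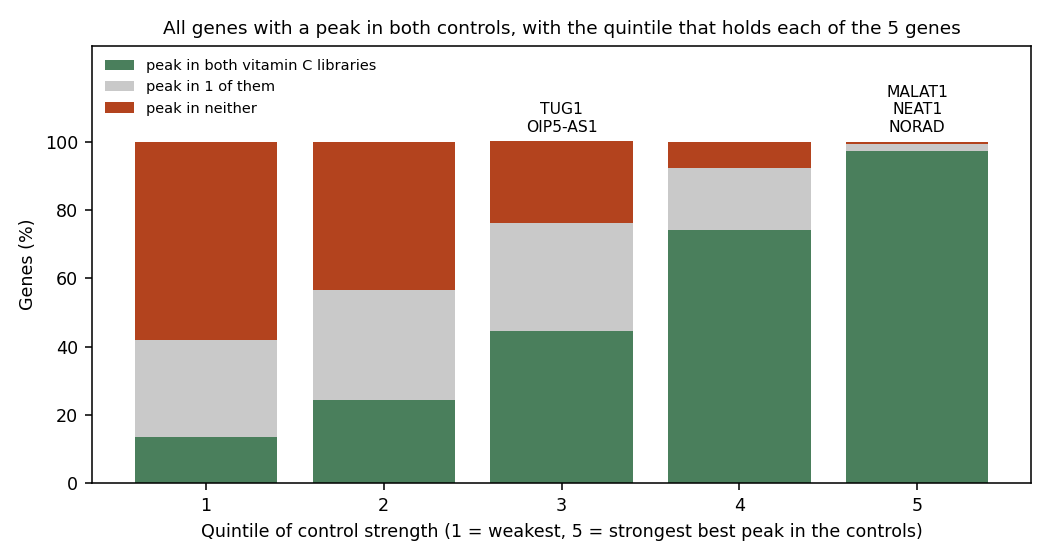
Genes with a peak in both controls, in quintiles of control strength (x axis, weakest to strongest), as the percentage with peaks in both, 1 or neither vitamin C library (stacked bars, y axis), with the names of the 5 genes above their quintile. Kept genes make up 13.7% of the weakest quintile and 97.2% of the strongest, which holds MALAT1, NEAT1 and NORAD.

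Peaks past the end were a shared feature of 3 of the 5 genes. Of the 4 genes whose strand the tables give, MALAT1, TUG1 and NORAD had a peak in both controls in the 1 kb past their end, beside 29.4% of 6909 genes of known strand. Among these 4, NORAD alone had one in the 1 kb before its annotated gene start, beside 29.9%. NEAT1 was left out of both counts because its strand came from general knowledge. Read toward higher coordinates, NEAT1 had 207 and 176 bp of peak in the 1 kb before its start in the controls. It had 0 bp in the 1 kb past its end. The past-end peaks of MALAT1 and NORAD were met in both vitamin C libraries and that of TUG1 in neither. MALAT1 and NORAD were in the strongest quintile of control strength, while both percentages cover genes of every strength. Genes of like strength were not compared.

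Genes for paraspeckle and nuclear speckle proteins were mostly kept, beside 50.8% of all genes and 97.2% of the strongest quintile of control strength. Of 20 paraspeckle protein genes, 19 had a peak in both controls, and 15 were kept and 1 lost, FAM98A. NONO and HNRNPK, RNA-binding proteins of the paraspeckle, were the strongest kept, with NONO covered over 10304 and 7297 bp in the controls, and with vitamin C 3085 and 3838 bp. The median gene of this list had 39.3% of its control length left. Of 16 nuclear speckle genes, 14 had a peak in both controls and each of these 14 was kept, led by the splicing factor genes SRSF3 and SRSF7, with a median of 43.9%. SRSF3 had 8923 and 8470 bp in the controls against 6048 and 5406 bp with vitamin C. Control strength differed within both lists, from 99.2 at NONO to 53.9 at FAM98A, and from 99.8 at SRSF3 to 66.9 at RBM25. The strongest quintile begins at 93.4, and both list medians were below its 57.2%. The lists were not compared with genes of like strength.

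The remaining lists were smaller or more mixed. Of 10 genes for RNase P, RNase Z and the CCA-adding enzyme, which make the ends of MALAT1 and mascRNA, 8 had peaks in both controls, 4 were kept and 2 lost (RPP30 and POP1), with a median of 19.3%. RPP38 and RPPH1, a protein and the RNA subunit of RNase P, were the strongest kept, RPPH1 with 1133 and 596 bp, then 654 and 909 bp. Of 5 genes for proteins that bind NORAD or OIP5-AS1, all with peaks in both controls, 3 were kept and 1 lost, with a median of 14.6%, below that of all genes. RBMX and KHDRBS1 were the strongest kept. ELAVL1, the gene of the RNA-stabilising protein HuR, was lost, with 1688 and 666 bp, then 0. Of 31 other long or nuclear lncRNA genes, 18 had peaks in both controls, 15 were kept, led by the snoRNA host genes SNHG1 and ZFAS1, and HOTAIR and CRNDE were lost, with a median of 26.1%. These counts and medians stand beside 50.8% kept, 26.8% lost and a median of 26.5% over all genes.

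Other lncRNA genes matched each pattern to a different degree. Likeness was the Euclidean distance, over the 4 libraries, between percentiles of the best peak, with 0 for no peak. HOXB-AS3 was nearest to MALAT1, at a distance of 0.987, followed by POLG-DT at 1.05 and LOC101928053 at 1.06. LOC124903994 was nearest to NEAT1 at 1.28, before LINC00869 at 2.59 and LOC124903191 at 2.71. CCDC18-AS1 was nearest to OIP5-AS1 at 2.16, with GPAT4-AS1 and ARL14EP-DT tied at 2.26. TUG1 and NORAD had looser matches, with PAXBP1-AS1 at 5.75, PYCARD-AS1 at 10.7 and LOC105372380 at 11.7 for TUG1, and LOC105375259 at 5.35, LOC124901750 at 6.30 and SOD2-OT1 at 7.095 for NORAD. With 4 libraries these distances are descriptions of the lists only.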

How the data were processed

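Per the submitters' processing notes, the tools were MACS2 2.2.7.1, Bowtie2 2.4.5, deepTools, cutadapt, Trim Galore and bcl2fastq 2.19, with build hg38; their order and settings are not given here. The deposited lists hold, per peak, its position and summit, the authors' fold enrichment (a ratio over local background), the authors' −log10 p and −log10 q, and a deposited score that was not used. The fold ranked peaks within 1 list, and it is set between libraries only beside the summit pileups of kept sites.

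Peaks outside chromosomes 1 to 22 and X were dropped, 4.23% to 5.06% of a list. Gene positions, promoter windows and types came from RefSeq tables of GRCh38.p14. Fold and p were solved for summit fragments and local background, within 0.005 in −log10 p, for 100% of peaks; vitamin C replicate 1 needed a scale of 0.776. The genome-wide mean was the lowest background shared by many peaks: 0.817 and 0.849 fragments per position (controls), 1.22 and 0.871 (vitamin C). Read totals are unknown. Sites are merged overlapping peaks of the 4 lists. Group differences were tested over libraries by an exact two-sided permutation test, which cannot go below 0.33, so no difference can pass a threshold of 0.05, before or after adjustment over all genes.

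The genes, lists and tests were chosen with earlier results of these data known. Named genes were the 5 members, genes within 5 kb of them, the 3 lncRNA genes of most similar pattern that share no peak with each, and in each list the 2 lost and 2 kept genes of highest control percentile; 1 listed gene is not reported here. The alternatives tried were stricter q and p thresholds, lists of equal length, flanks of 0 or 5 kb, stricter overlaps, leaving out each library, and a replicate block. The calls were run on simulated lists with known answers. Each simulated peak was placed inside a widened gene, so this checks the counting alone and not the calls in these data. Python 3.11.15 with numpy 2.4.6, pandas 2.3.3, scipy 1.17.1 and matplotlib 3.10.9 was used.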

Additional observations from a re-analysis of the deposited data

How the results depend on the processing

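OIP5-AS1 was lost, and MALAT1, NEAT1 and NORAD were kept, under each of the 11 alternatives run on these calls; the covered lengths of NEAT1, TUG1, OIP5-AS1 and NORAD stayed lower with vitamin C under all 12 run on lengths. MALAT1 reversed, to 653.5 bp when the summit had to lie in the widened gene, and over the left-out libraries its difference ran from -822.5 to 301.5 bp. Under the summit rule the peak across the MALAT1 end counted in vitamin C replicate 1 alone. Its summit there stood 109 bp past the end, against 1327 to 1374 bp in the other libraries. Without vitamin C replicate 2, TUG1 joined OIP5-AS1 among lost genes, so that the count ran from 1 to 2 over left-out libraries. The summed difference of -6260 bp was -2969 bp in lists of equal length. The share of all genes lost, 26.8%, was 7.35% in lists of equal length, 28.9% with no flanks, 24.3% with 5 kb flanks and 33.3% to 38.5% with 1 library left out, where 1 library alone decides a call. The cause of the other moves was not tested, except that a left-out library leaves fewer lists to meet.

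With the replicate number as a replicate block the summed difference was again -6260 bp, as it must be with 2 complete pairs, and an exact sign-flip test cannot go below 0.5 for a gene. Deviations of same-numbered libraries correlated at 0.0516 over 13337 genes, so the numbers were not taken as pairs.

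The limits are these. There are 2 libraries per group, read totals are unknown, and the vitamin C lists hold far fewer peaks, so a site without a vitamin C peak is not shown to be closed.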
